A study of Mus musculus with 15 samples.

Results

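The 6 genes of NADPH supply are described here in the mouse large intestine, namely G6pdx, Pgd, Taldo1 and Tkt of the pentose phosphate path, the malic enzyme gene Me1 and the isocitrate dehydrogenase gene Idh1. They were taken as a list of gene names, chosen with earlier results of these data known, and make up 6 of the 11496 genes tested. The series is RNA sequencing of large intestine from 4-week-old male C57Bl/6 mice, with 15 libraries in all and 3 in each of 5 groups. The groups were cymopol at a high dose of 1.4 mmol/kg (replicates 11, 12 and 14), a high dose of 1.0 g/kg of a non-polar (NP) algal extract (21, 23 and 25), cymopol at a low dose of 0.3 mmol/kg (33, 34 and 35), the same extract at a low dose of 0.3 g/kg (26, 27 and 29), and the vehicle control (2, 4 and 5). The vehicle, which all treated mice also received as solvent, was Chremophor EL with 10% DMSO. Mice were gavaged daily on 3 days and killed 12 h later. Cymopol is a phenolic compound known from green algae of the genus Cymopolia. No label says that the libraries of a group are separate mice, so p-values may measure only the spread between these samples.

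NADPH is the electron donor for the reduction of glutathione and thioredoxin, for quinone and carbonyl reductases, and for fatty acid and sterol synthesis. In the cytosol it is made mainly in the oxidative arm of the pentose phosphate path, by glucose-6-phosphate dehydrogenase (G6pdx) and 6-phosphogluconate dehydrogenase (Pgd). The non-oxidative arm, with transaldolase (Taldo1) and transketolase (Tkt), makes no NADPH itself and returns pentose phosphates to glycolysis. Malic enzyme (Me1) and cytosolic isocitrate dehydrogenase (Idh1) make NADPH from malate and isocitrate. All 6 genes are known in the mouse as genes whose transcription the stress-responsive factor NRF2 can raise. NRF2 binds the antioxidant response element, whose core letters are TGACNNNGC.

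All 6 genes are protein-coding. On GRCm38, G6pdx (ENSMUSG00000031400) lies on the minus strand at chrX:74409483-74429194 and Pgd (ENSMUSG00000028961) on the minus strand at chr4:149149991-149166771. Taldo1 (ENSMUSG00000025503) lies on the plus strand at chr7:141392199-141402968 and Tkt (ENSMUSG00000021957) on the plus strand at chr14:30548359-30574720. Me1 (ENSMUSG00000032418) lies on the minus strand at chr9:86581371-86695953 and Idh1 (ENSMUSG00000025950) on the minus strand at chr1:65158616-65186500. RefSeq promoter windows of build GRCm38.p6, from 250 bases before to 50 bases after a transcript start, were found for 6 of the 6 genes, in 9 windows. The letters TGACNNNGC, searched on both strands, occurred in 3 of the 9 windows, against 12.4% of all 32851 windows of that length. These windows belong to 3 of the 6 genes, and no share per gene was computed. For Pgd the match lies only in a second window, whose start is inside the gene. The windows of the 2 dehydrogenases of the oxidative arm and of Me1 are shown, in the direction of transcription, with the matched letters in capitals. The G6pdx window (chrX:74428831-74429130, minus strand) matched on the strand opposite to transcription, 57 bases before the start. The first Pgd window (chr4:149166656-149166955, minus strand) held no match. The Me1 window (chr9:86695865-86696164, minus strand) matched 6 bases before the start.
G6pdx: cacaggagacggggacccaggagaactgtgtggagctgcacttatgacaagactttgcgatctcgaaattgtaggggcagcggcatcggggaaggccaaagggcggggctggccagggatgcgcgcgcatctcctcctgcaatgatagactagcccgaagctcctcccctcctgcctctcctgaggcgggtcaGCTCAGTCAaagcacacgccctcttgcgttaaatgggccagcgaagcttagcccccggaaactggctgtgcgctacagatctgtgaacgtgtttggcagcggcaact
Pgd: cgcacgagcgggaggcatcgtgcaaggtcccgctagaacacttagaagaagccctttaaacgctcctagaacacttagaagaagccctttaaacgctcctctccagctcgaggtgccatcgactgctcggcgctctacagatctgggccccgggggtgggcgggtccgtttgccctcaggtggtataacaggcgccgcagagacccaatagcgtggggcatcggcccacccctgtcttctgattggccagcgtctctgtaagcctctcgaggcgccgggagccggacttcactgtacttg
Me1: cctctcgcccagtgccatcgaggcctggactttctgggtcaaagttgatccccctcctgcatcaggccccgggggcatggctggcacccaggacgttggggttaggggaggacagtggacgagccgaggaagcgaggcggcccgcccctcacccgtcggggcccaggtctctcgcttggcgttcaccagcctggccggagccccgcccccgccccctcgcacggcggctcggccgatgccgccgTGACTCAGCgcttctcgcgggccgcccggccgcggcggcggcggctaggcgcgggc
A second Pgd window (chr4:149166033-149166332, minus strand) held TGACATTGC beginning 3 bases after the start, within the transcribed part. Its start, chr4:149166082, lies inside the gene, downstream of the start of the first window at chr4:149166705. This match is thus not upstream of the gene. The windows of Taldo1, Tkt and Idh1 and the second window of Me1 held no match. A match of letters describes the window and is not evidence of a bound site.

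Levels are the deposited FPKM, a fragment count divided by transcript length and by library size. Library depth, estimated from the width of the deposited FPKM intervals, was 287863 to 342018 fragments in protein-coding genes for the cymopol high dose and 174898 to 556039 for the extract high dose. It was 31769.7 to 182609 for the cymopol low dose, 28064.5 to 105969 for the extract low dose and 25113.9 to 226425 for the vehicle. Depth estimated from FPKM times length and a scale per library was higher, 79054 to 656872 for the vehicle. For the high doses it was 624674 to 722916 with cymopol and 448524 to 1241883 with the extract. For the low doses it was 126353 to 435176 with cymopol and 163281 to 283147 with the extract. Annotated genes held 65.2% to 65.4% of the estimated fragments in the cymopol high dose, 56.8% to 64.9% in the extract high dose, 44.5% to 71.6% in the cymopol low dose, 33.0% to 65.8% in the extract low dose and 8.50% to 46.5% in the vehicle. Over 20% of fragments were intergenic in 3 libraries, extract low-dose replicate 26 and vehicle replicates 2 and 5. Assembled pieces inside genes but not classed as exonic held 57.7% of fragments in vehicle replicate 4, the largest share of all libraries. Vehicle replicate 2 had 43.8% in such pieces and replicate 5 had 27.1%. Treated libraries ranged from 15.6% (extract low-dose replicate 27) to 41.2% (extract low-dose replicate 26), and those given cymopol at the high dose from 25.0% to 26.0%. All 9 epithelial markers, such as Epcam, Cdh1 and Krt20, had values, and none was at 0 throughout a group. The part of depth, of intergenic share and of the non-exonic share inside genes in any difference given here was not tested.

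G6pdx encodes the enzyme of the committed step of the oxidative arm. It had 10.1, 10.8 and 7.49 FPKM in the cymopol high dose, 8.0, 27.5 and 7.47 in the extract high dose, 3.62, 6.95 and 10.2 in the cymopol low dose, 0, 6.50 and 3.96 in the extract low dose, and 0, 0 and 5.00 in the vehicle. All 6 high-dose libraries lay above all 3 vehicle libraries, while each low-dose group overlapped the vehicle. Both zeros of the vehicle and that of the extract low dose are values listed at 0, so no fold is given. The 5.00 FPKM of vehicle replicate 5 rests on an estimated 0.384 fragments; the cymopol high dose had 29.3 to 54.6 and the extract high dose 27.9 to 95.1. G6pdx lies wholly within the span of Ikbkg, which is on the other strand, and shares 19712 bases with it. These are bases of the gene spans, and bases shared by exons were not counted. Whether the authors counted by strand is not given in the sources used here. Without strand, reads in any exonic part that both genes share could not be told apart. Ikbkg itself was listed at 2.60, 0 and 18.9 FPKM in the cymopol high dose, 13.3, 3.59 and 1.88 in the extract high dose, 1.31, 9.65 and 3.55 in the cymopol low dose, 0.223, 1.24 and 0 in the extract low dose, and 1.62, 0 and 0 in the vehicle. The part of Ikbkg reads in the G6pdx values was not tested.

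Pgd encodes the second NADPH-producing enzyme of that arm and had the highest mean of the 6 genes. It had 69.4, 27.8 and 48.9 FPKM in the cymopol high dose, 38.0, 39.2 and 60.1 in the extract high dose, 20.4, 24.0 and 47.9 in the cymopol low dose, 2.83, 34.7 and 37.4 in the extract low dose, and 0.677, 13.3 and 15.2 in the vehicle. Of the 12 treated libraries, only extract low-dose replicate 26, at 2.83, did not exceed every vehicle library. That library was also the lowest of its group for Taldo1, Tkt, Me1, Idh1 and G6pdx, and its sum of FPKM times length over protein-coding genes was the smallest of all (0.0879 relative to the geometric mean of the libraries).

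**Figure D1:**
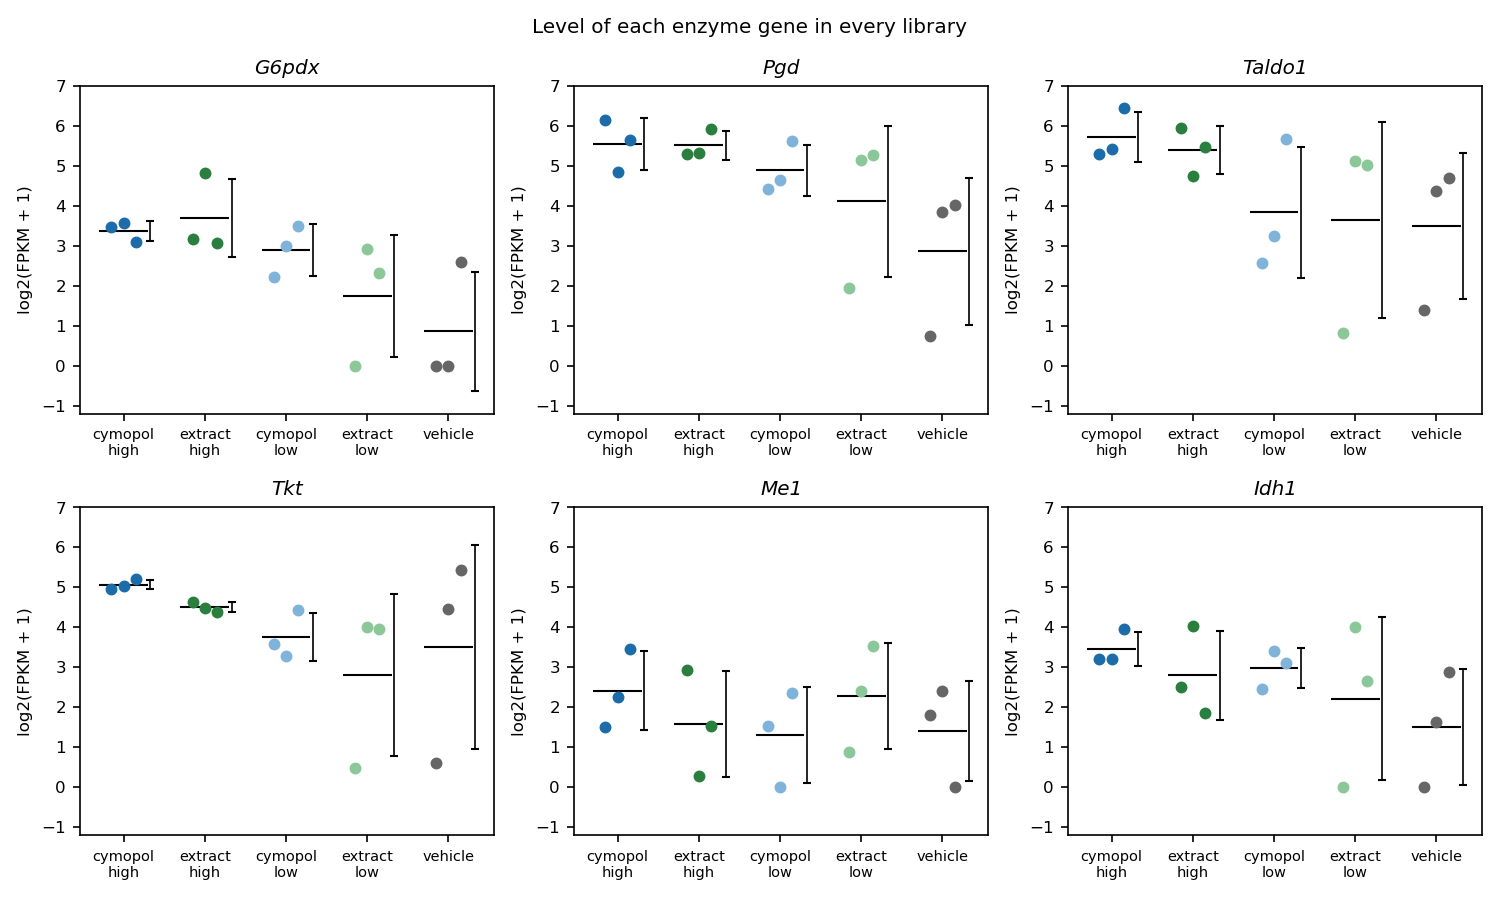
Level of the 6 genes in each of the 15 libraries, as log2(FPKM + 1); points are libraries, horizontal bars are group means and whiskers are SDs (n = 3). G6pdx and Pgd are higher in all 6 high-dose libraries than in the 3 vehicle libraries, while Tkt and Me1 overlap the vehicle in both high-dose groups.

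In the non-oxidative arm, Taldo1 had 38.3, 41.9 and 86.3 FPKM in the cymopol high dose, 61.0, 25.9 and 43.6 in the extract high dose, 4.96, 8.49 and 50.2 in the cymopol low dose, 0.768, 33.7 and 31.3 in the extract low dose, and 1.63, 19.7 and 25.0 in the vehicle. Both high-dose groups lay above the vehicle, in the extract by a narrow margin (25.9 against 25.0), and both low-dose groups overlapped it. Tkt had 30.2, 32.0 and 35.9 FPKM in the cymopol high dose, 23.8, 21.5 and 19.8 in the extract high dose, 11.0, 8.74 and 20.6 in the cymopol low dose, 0.383, 15.1 and 14.6 in the extract low dose, and 0.529, 21.1 and 42.4 in the vehicle. All treated groups overlapped the vehicle, whose replicate 5 was the highest Tkt value of all. Both high-dose groups of Tkt were narrow, at 32.7 ± 2.92 FPKM for cymopol and 21.7 ± 2.00 for the extract, against 21.4 ± 20.9 for the vehicle (SD, n = 3 each).

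Me1 was the least abundant of the 6 genes. It had 1.86, 3.80 and 10.0 FPKM in the cymopol high dose, 6.67, 0.207 and 1.90 in the extract high dose, 1.90, 0 and 4.14 in the cymopol low dose, 0.838, 4.33 and 10.5 in the extract low dose, and 2.50, 4.30 and 0 in the vehicle. Each treated group overlapped the vehicle. Me1 rested on under 1 estimated fragment in 5 of the 15 libraries. Separate pieces within Me1 but outside its exons held 89.7 estimated fragments in vehicle replicate 2, against 2.20 for Me1 itself. Vehicle replicate 4 had 76.1 in such pieces against 2.54, and cymopol high-dose replicate 12 had 9.59 against 2.78. Idh1 had 8.29, 8.28 and 14.5 FPKM in the cymopol high dose, 4.64, 15.3 and 2.64 in the extract high dose, 4.46, 9.69 and 7.55 in the cymopol low dose, 0, 14.99 and 5.26 in the extract low dose, and 0, 2.11 and 6.37 in the vehicle. Only the cymopol high dose lay wholly above the vehicle. By interval width, Idh1 and Tkt each had under 1 estimated fragment in 6 libraries. For Tkt this need not mean few reads, since its intervals were wide for its level. In cymopol high-dose replicate 11, Tkt had 12.6 estimated fragments at 30.2 FPKM, and Pgd had 204 at 69.4.

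Groups were compared with limma on log2(FPKM + 1) in a fit of all 15 libraries, two-sided, with Benjamini-Hochberg adjustment over 11496 genes. No member passed an adjusted p of 0.05 in any of the 6 comparisons, where the share of all genes called was 0.0174% for the cymopol high dose against vehicle, 0.00870% for the extract high dose against vehicle, 0.00% for each low dose against vehicle and 0.00870% for each high dose against its low dose. All comparisons with the vehicle share its 3 libraries. The exact permutation test of 3 libraries against 3 cannot go below p = 0.1, so only the fit across genes can pass the threshold.

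Against the vehicle, the cymopol high dose gave the largest log2 difference for Pgd, 2.68 ± 1.25 (SE), with an adjusted p of 0.360, and G6pdx followed with 2.51 ± 1.10 and an adjusted p of 0.338. Taldo1 had 2.23 ± 1.32, Idh1 1.96 ± 1.13, Tkt 1.56 ± 1.27 and Me1 1.01 ± 1.05. The median of the 6 was 2.10, against 0.81 over all genes, and 6 of 6 exceeded that median. Of the lists described below, so did 10 of 11 NADPH-using reductases, 12 of 14 glycolysis genes and 11 of 12 citrate cycle genes. The counts were 6 of 10 for other genes that make NADPH or NADP, 3 of 7 for other pentose phosphate genes and 4 of 10 for lipid synthesis. An unadjusted p under 0.05 with a higher level was found for 2 of 6 (G6pdx and Pgd), against 12.5% of all genes, and for the same 2 of 6 with voom, against 12.8% of all genes in voom. Groups did not overlap, with the treated libraries higher, for 4 of 6 (G6pdx, Pgd, Taldo1 and Idh1), against 19.5% of all genes.

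In the extract high dose, G6pdx had the largest log2 difference, 2.83 ± 1.10 with an adjusted p of 0.359, and Pgd had 2.65 ± 1.25 with an adjusted p of 0.415. The others were Taldo1 at 1.91 ± 1.32, Idh1 at 1.29 ± 1.13, Tkt at 0.99 ± 1.27 and Me1 at 0.18 ± 1.05. The median of the 6 was 1.60, against 0.71 over all genes, which 5 of 6 exceeded. So did 9 of 11 NADPH-using reductases, 12 of 14 glycolysis genes and 11 of 12 citrate cycle genes. The counts were 6 of 10 for other genes that make NADPH or NADP, 3 of 7 for other pentose phosphate genes and 2 of 10 for lipid synthesis. An unadjusted p under 0.05 was found for 2 of 6 (G6pdx and Pgd), against 10.6% of all genes, and for the same 2 with voom, against 13.4% in voom. Groups did not overlap for 3 of 6 (G6pdx, Pgd and Taldo1), against 19.3% of all genes.

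In the low doses, no member had an unadjusted p under 0.05 in limma, with 3.89% of all genes higher at that p for cymopol and 1.11% for the extract. voom put 2 of 6 (G6pdx and Pgd) under 0.05 and higher for the cymopol low dose, against 5.65% of all genes in voom, and 1 of 6 (Pgd) for the extract low dose, against 4.19%, none passing adjustment. In the cymopol low dose, Pgd had a log2 difference of 2.02 ± 1.25 and G6pdx 2.03 ± 1.10. Only Pgd of the 6 did not overlap the vehicle, against 3.89% of all genes. In the extract low dose, Pgd had 1.25 ± 1.25 and G6pdx 0.88 ± 1.10, Tkt had -0.69 ± 1.27, and no member was free of overlap, against 1.23% of all genes. The median over all genes was 0.23 for the cymopol low dose and -0.14 for the extract low dose. Vehicle replicate 2 moved the Pgd differences by over 1.5 times. Without it, Pgd had 1.62 in the cymopol high dose, 1.59 in the extract high dose, 0.96 in the cymopol low dose and 0.19 in the extract low dose.

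**Figure D2:**
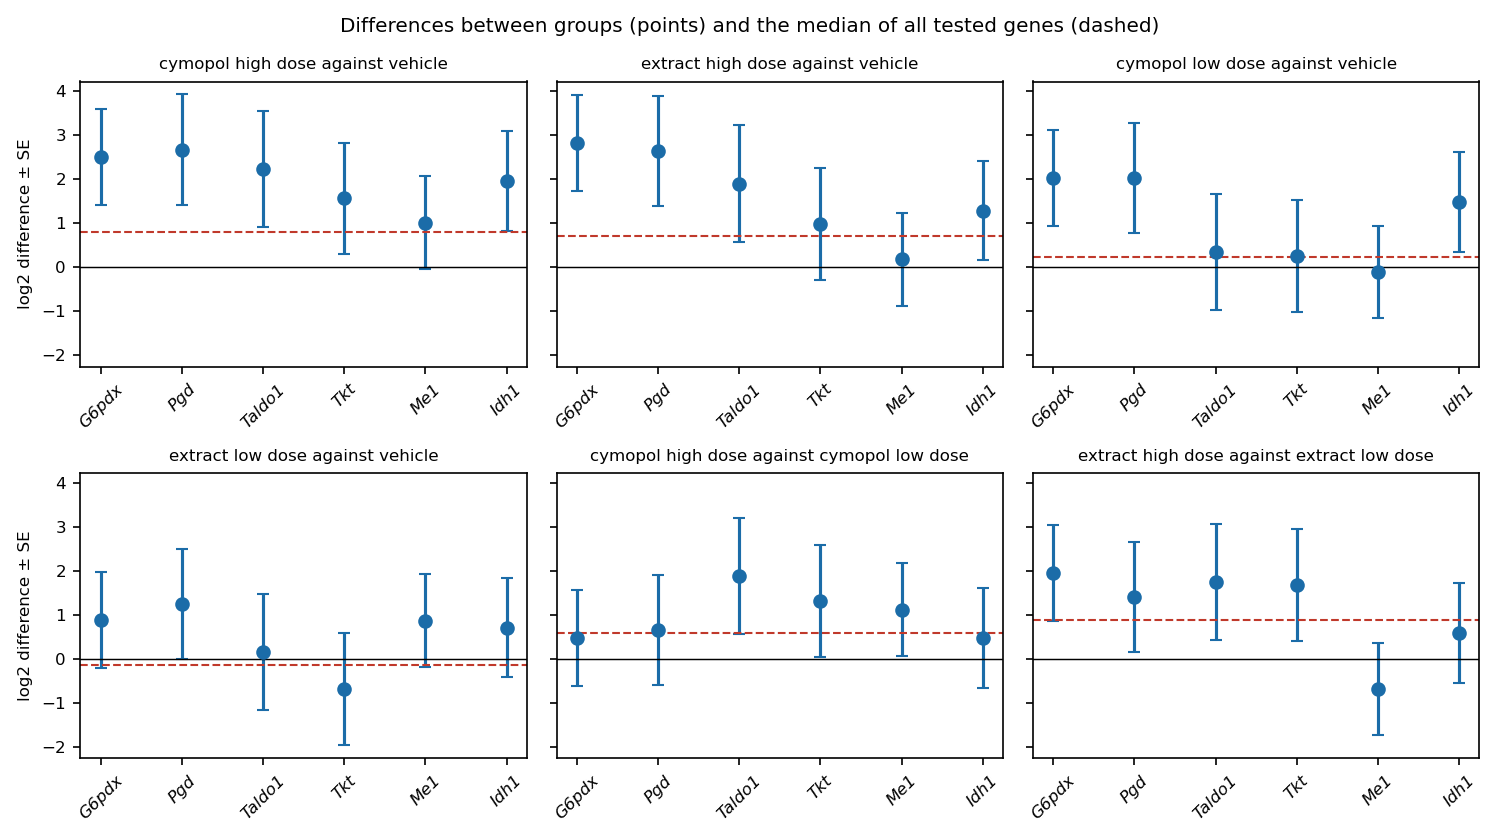
Log2 differences of the 6 genes in 6 comparisons, on the log2(FPKM + 1) scale; points are estimates, bars are SEs of the limma fit and the dashed line is the median of all 11496 genes. Pgd and G6pdx stand highest in both high doses against vehicle, at 2.51 to 2.83, and no point passes adjustment.

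Between doses, cymopol high against cymopol low gave a Taldo1 difference of 1.89 ± 1.32, a Tkt difference of 1.31 ± 1.27 and a Pgd difference of 0.65 ± 1.25. No member had an unadjusted p under 0.05, with 5.35% of all genes higher at that p, nor did any with voom, where the share was 4.38%. Only Tkt of the 6 had groups that did not overlap, against 9.75% of all genes, and none of the 6 after scaling to protein-coding fragments, against 9.11% of all genes. Extract high against extract low gave a G6pdx difference of 1.96 ± 1.10, Taldo1 1.74 ± 1.32, Tkt 1.69 ± 1.27, Pgd 1.40 ± 1.25 and Me1 -0.69 ± 1.05. Again no member had an unadjusted p under 0.05 in limma or in voom, with 7.09% of all genes higher at that p in limma and 7.35% in voom. Groups did not overlap for 3 of 6 (G6pdx, Pgd and Tkt), against 20.9% of all genes, and for none of the 6 after that scaling, against 12.6% of all genes. The agents were given in different units of dose, so their values are set side by side and not tested against each other.

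Because FPKM totals differed so widely, Pgd was also described relative to other genes of the same library. This was chosen after its values were seen and is a description. The limma fit on scaled values given below is likewise not a planned test. FPKM values were scaled so that the protein-coding genes of each library hold the same sum of FPKM times length. Scaled Pgd was 60.5, 14.7 and 33.4 in the cymopol high dose, 31.5, 21.9 and 57.5 in the extract high dose, 35.6, 16.8 and 32.6 in the cymopol low dose, 32.2, 38.6 and 29.5 in the extract low dose, and 1.82, 5.64 and 11.6 in the vehicle. All 12 treated libraries lay above the 3 vehicle libraries, which held for 1.06% of all genes on this scale. On the FPKM scale this held for 0.296% of genes and not for Pgd, because of extract low-dose replicate 26. By rank, Pgd exceeded 91.2% to 98.5% of tested genes in the treated libraries and 70.8% to 87.7% in the vehicle libraries, again with no overlap, which held for 0.600% of genes. On the scaled values, groups did not overlap the vehicle for 3 of 6 in the cymopol high dose (G6pdx, Pgd and Taldo1, against 20.5% of all genes) and for 2 of 6 in the extract high dose (G6pdx and Pgd, 22.3%). The same held for 3 of 6 in the cymopol low dose (G6pdx, Pgd and Idh1, 6.06%) and for 1 of 6 in the extract low dose (Pgd, 5.03%). The share of Pgd in the summed FPKM of the 6 genes was 22.3% to 58.7% in the treated libraries and 12.7% to 21.97% in the vehicle. No other member had all 12 treated libraries above the vehicle on the scaled or the rank measure, with 10 of 12 for scaled G6pdx, 8 for Taldo1, 7 for Idh1, 3 for Me1 and 0 for Tkt. For these partial counts no share over all genes was computed.

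In the limma fit on scaled values, the log2 difference of Pgd against vehicle was 2.38 ± 0.78 in the cymopol high dose, 2.51 ± 0.78 in the extract high dose, 2.17 ± 0.78 in the cymopol low dose and 2.47 ± 0.78 in the extract low dose. The adjusted p of limma was 0.309 in the cymopol high dose, 0.254 in the extract high dose, 0.479 in the cymopol low dose and 0.404 in the extract low dose. High against low dose, scaled Pgd differed by 0.20 ± 0.78 for cymopol and by 0.039 ± 0.78 for the extract. The vehicle values rest on few reads, an estimated 0.294, 31.5 and 2.67 fragments of Pgd in replicates 2, 4 and 5. Without the libraries over 20% intergenic only vehicle replicate 4 remains, so the pattern was not recomputed without them. That replicate had 57.7% of its fragments in non-exonic pieces inside genes, the largest such share of all libraries.

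**Figure D3:**
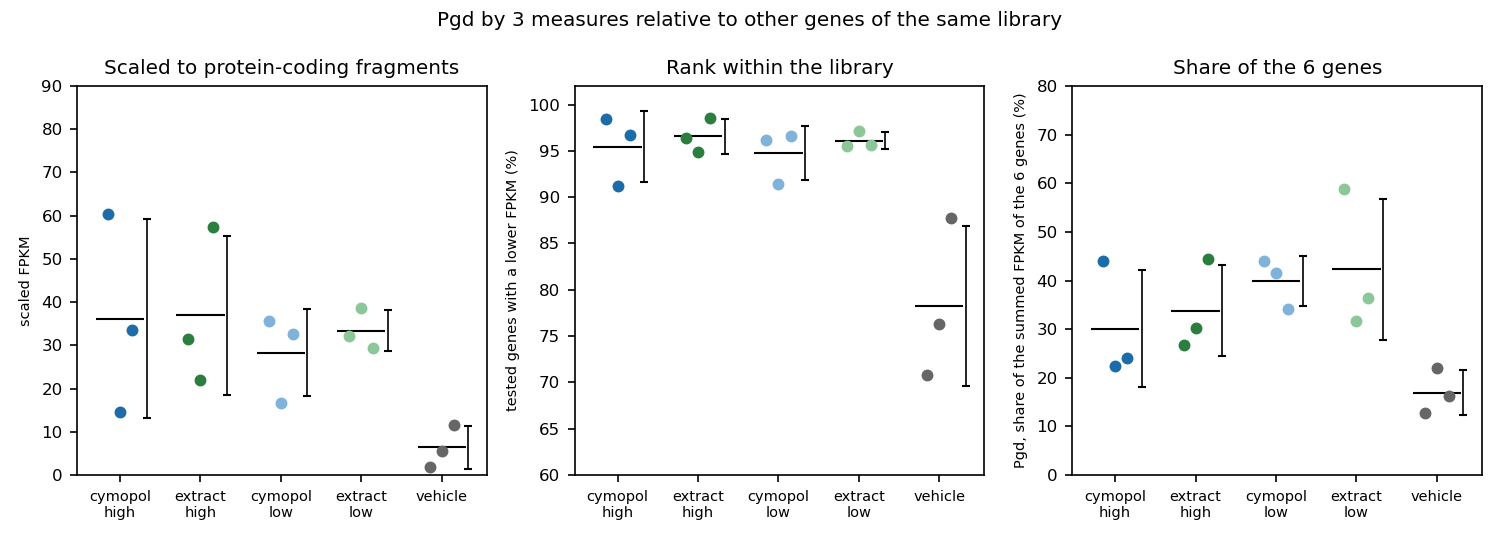
Pgd in each library as scaled FPKM, as the percentage of tested genes with a lower FPKM (axis from 60%), and as its share of the summed FPKM of the 6 genes; points are libraries, bars are means and whiskers are SDs (n = 3). In each panel all 12 treated libraries lie above the 3 vehicle libraries, with the lowest treated scaled value at 14.7 and the highest vehicle value at 11.6.

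Epithelial and smooth muscle marker levels also differed between groups, and their part in the Pgd pattern was not tested. The summed scaled FPKM of the 9 epithelial markers was 601 to 857 in the cymopol high dose, 471 to 676 in the extract high dose, 379 to 689 in the cymopol low dose, 419 to 562 in the extract low dose and 144 to 414 in the vehicle. The cymopol low dose overlapped the vehicle for these markers, and the other treated groups lay above it. In such tissue RNA, fewer cells of a type and less RNA per cell cannot be told apart. The summed scaled FPKM of 6 smooth muscle markers was 303 to 534 in the cymopol high dose, 293 to 414 in the extract high dose, 450 to 834 in the cymopol low dose, 387 to 594 in the extract low dose and 176 to 368 in the vehicle. Both low doses lay above the vehicle for these markers, and both high doses overlapped it. Per 100 FPKM of the epithelial markers, Pgd was 7.95, 2.44 and 3.90 in the cymopol high dose, 4.65, 4.21 and 12.2 in the extract high dose, 9.39, 2.75 and 4.73 in the cymopol low dose, 7.59, 6.86 and 7.03 in the extract low dose, and 1.27, 2.75 and 2.81 in the vehicle. On this ratio 10 of 12 treated libraries exceeded the vehicle maximum, against 8 for G6pdx, 6 for Taldo1, 3 for Idh1 and 0 for Tkt and for Me1. The ratio was computed for the members only, so no share over all genes stands beside these counts. For G6pdx the vehicle maximum, 0.926 in replicate 5, rests on an estimated 0.384 fragments, and replicates 2 and 4 were at 0. In unscaled FPKM, summed immune markers were 520 in vehicle replicate 4 and at most 102.4 in the treated libraries. Summed adipocyte markers, also unscaled, were 619 in vehicle replicate 4 and at most 467 in the treated libraries. After scaling, the immune maximum was 221 in the vehicle and 54.0 in the cymopol high dose. The scaled adipocyte maximum was 263 in the vehicle, below 333 in the cymopol high dose and 317 in the cymopol low dose.

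Over all 15 libraries the mean levels were 32.0 ± 19.9 FPKM for Pgd, 31.5 ± 23.6 for Taldo1, 19.8 ± 12.1 for Tkt, 7.17 ± 6.69 for G6pdx, 6.94 ± 5.04 for Idh1 and 3.53 ± 3.32 for Me1 (SD). FPKM is a level per length, so these can be ordered. Pgd exceeded Taldo1 in 8 of 15 libraries and G6pdx exceeded Idh1 in 6 of 15, so neither pair differed beyond its spread. Taldo1 exceeded Tkt in 11 of 15 and Idh1 exceeded Me1 in 10 of 15, with SDs that also overlap. Tkt exceeded G6pdx in 14 of 15.

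The members were also compared across the 15 libraries by Pearson r of log2(FPKM + 1) after the mean of the tested genes in each library was taken off. These points share libraries of unequal depth, and no p is given. The highest r among members was 0.78 for Taldo1 and Tkt, followed by 0.72 for G6pdx and Idh1 and 0.71 for Pgd and Taldo1. Me1 stood apart, with r of -0.42 with G6pdx and at most 0.13 with any member. Of all tested genes, those most like Pgd were Ethe1 (r = 0.90), Pigt (0.87) and Sdhb (0.86). G6pdx was most like Suclg1 (0.89), Car2 (0.87) and Krt19 (0.86), of which Krt19 is among the epithelial markers. Taldo1 was most like Trpm4 (0.91), Tjp3 (0.89) and Atp5d (0.87), and Tkt most like Cant1 (0.92), Ergic3 (0.92) and Mdh2 (0.91). Idh1 was most like Eif6 (0.83), Suclg1 (0.82) and Nacc1 (0.81), and Me1 most like Lpgat1, Gm11437 and Arid3b (each 0.82).

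Related enzymes were described as lists beside the 6 genes, and no gene of any list passed adjustment in any of the 6 comparisons with limma. The median log2 difference of other pentose phosphate genes was 0.69 in the cymopol high dose and 0.59 in the extract high dose against vehicle, beside 0.81 (cymopol) and 0.71 (extract) over all genes. In limma, 12.5% of all genes for cymopol and 10.6% for the extract were higher at an unadjusted p under 0.05. These shares stand beside every list count given here. Of other pentose phosphate genes, 0 of 7 for cymopol and 1 of 7 for the extract had such a p. The 1 was Prps2, which makes phosphoribosyl pyrophosphate, at 2.57 ± 1.07 for the extract and 1.56 ± 1.07 for cymopol. Rpia, ribose-5-phosphate isomerase, had 1.51 ± 1.02 for cymopol and 1.74 ± 1.02 for the extract, and H6pd, the hexose-6-phosphate dehydrogenase of the endoplasmic reticulum, had 0.41 ± 0.98 for cymopol and 0.37 ± 0.98 for the extract. Other genes that make NADPH or NADP had a median of 1.01 for cymopol, with 3 of 10 at that p, and of 0.88 for the extract, with 0 of 10. Glud1, glutamate dehydrogenase, had 3.08 ± 1.33 in the cymopol high dose and 2.54 ± 1.33 in the extract high dose. Aldh1l1, a formyltetrahydrofolate dehydrogenase, had 2.64 ± 1.23 for cymopol and 1.57 ± 1.23 for the extract, and the NAD kinase Nadk had 1.28 ± 1.30 for cymopol and 1.44 ± 1.30 for the extract.

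Reductases that use NADPH had the highest medians of the lists, 2.48 in the cymopol high dose and 2.37 in the extract high dose. At an unadjusted p under 0.05 there were 5 of 11 in each. The share of all genes higher at that p was 12.5% for cymopol and 10.6% for the extract, for this and the following lists. Carbonyl reductase Cbr1 had 1.99 ± 1.26 for cymopol and 2.79 ± 1.26 for the extract, and the cytochrome P450 reductase Por had 1.19 ± 1.36 for cymopol and 1.11 ± 1.36 for the extract. Fasn, the fatty acid synthase, had 1.13 ± 1.25 for cymopol and -0.92 ± 1.25 for the extract. This gene is counted both among these reductases and among the lipid synthesis genes. Glycolysis genes had medians of 1.65 for cymopol and 1.46 for the extract, with 1 of 14 at that p in each. Genes of the mitochondrial citrate cycle had a median of 1.63 for cymopol, with 1 of 12 at that p, and of 1.57 for the extract, with 2 of 12. Of the glycolysis genes, aldolase Aldoa had 1.84 ± 1.27 for cymopol and 1.76 ± 1.27 for the extract, and Gapdh had 0.92 ± 1.28 for cymopol and 0.88 ± 1.28 for the extract. Lactate dehydrogenase Ldha had 2.65 ± 1.41 for cymopol and 2.38 ± 1.41 for the extract, and malate dehydrogenase Mdh2 had 1.19 ± 1.33 for cymopol and 1.08 ± 1.33 for the extract. Ogdh, of the oxoglutarate dehydrogenase complex, had 1.06 ± 1.35 for cymopol and 0.52 ± 1.35 for the extract. Lipid synthesis genes, which draw on NADPH, had medians of 0.35 for cymopol and -0.21 for the extract, with 0 of 10 at that p in each. Acly, the ATP citrate lyase, had 0.10 ± 1.30 for cymopol and -0.62 ± 1.30 for the extract. Scd1, which desaturates stearate, had -0.089 ± 1.37 for cymopol and -2.12 ± 1.37 for the extract. Its level was highest, at 305 FPKM, in vehicle replicate 4, the library with the highest adipocyte marker sum in unscaled FPKM. The part of adipose tissue in the Scd1 difference was not tested.

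**Figure D4:**
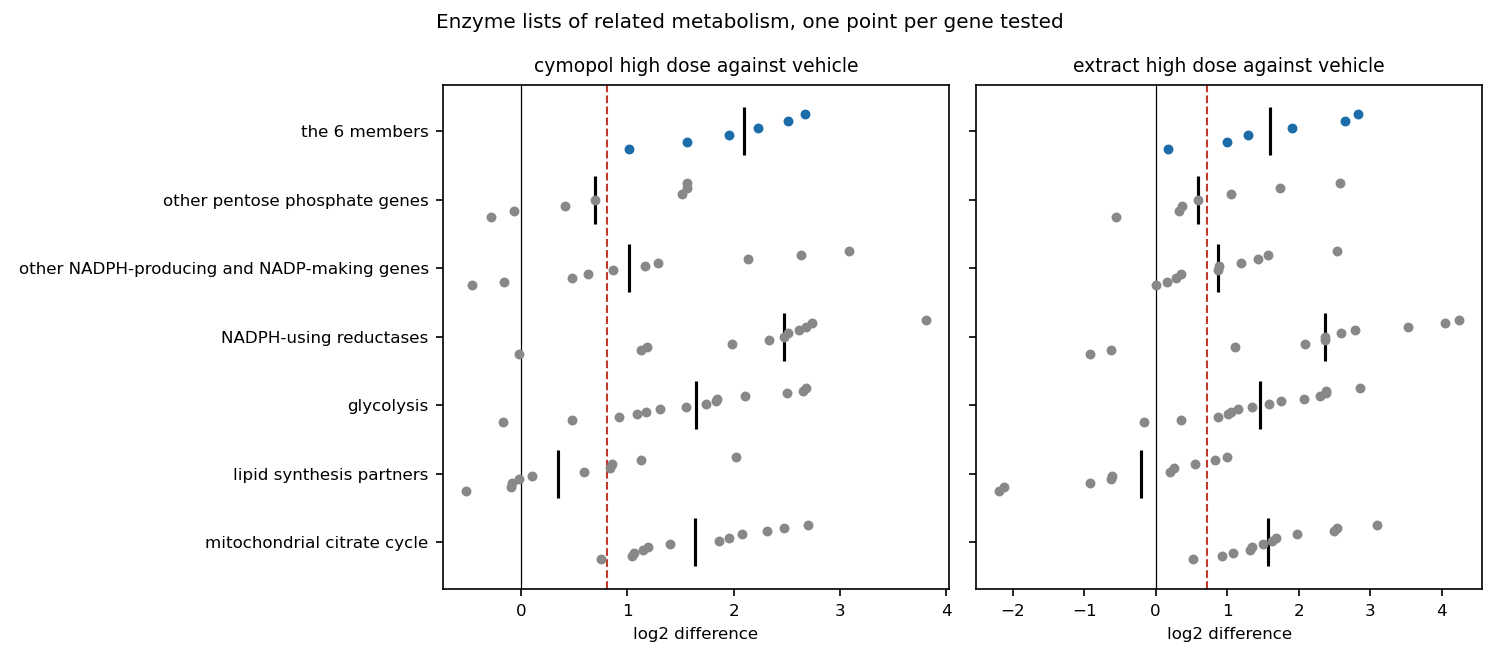
Log2 differences of each tested gene of 7 enzyme lists, in the cymopol high dose (left) and the extract high dose (right) against vehicle; points are genes, short vertical lines are list medians and the dashed line is the median of all genes. The NADPH-using reductases have the highest medians, 2.48 and 2.37, and the lipid synthesis genes the lowest, 0.35 and -0.21. Fasn is a member of both of these lists.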

How the data were processed

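The authors deposited 1 table of FPKM per library, with a lower and an upper bound, laid out as Cufflinks writes gene values, per the file headers. Per the labels' protocols, 90 ng of total RNA was depleted of ribosomal RNA and made into libraries with a low-input kit; per the submitters' processing notes, STAR 2.4.0j and GRCm38.p4 were used. No source used here gives the quantifier's settings. No member had a row under its own Ensembl identifier, so all 90 member values come from assembled loci that match the span annotated in GENCODE (starts within 23 bases, ends within 16). Genes valued in all 15 libraries, with 1 FPKM or more in 3 or more of them, were tested on log2(FPKM + 1), which understates differences of low genes, with limma 3.58.1 in R 4.3.3 (1 mean per group, moderated variances with an intensity trend). Scaling to protein-coding fragments was added after seeing the data. The tables hold no counts, so fragments were estimated from the FPKM intervals, taken as counting error only. Where an interval is wide for another reason, the estimate is too low. For voom, fragments were estimated from FPKM, transcript length and a scale per library. The fit was tried on simulated data with independent noise around the mean of each gene. That simulation held no library-wide shifts or unequal depth, so it does not show how the fit behaves under these. The members, lists and markers were chosen with earlier results of these data known. Of each list, the 3 genes with the largest mean FPKM were named, with exceptions said; 1 such gene is not reported here. The lists held 8, 13, 12, 14, 10 and 12 genes, of which Pgls had no value in some library, and Me3, Mthfd2, Aldh1l2 and Txnrd2 were under the filter. Alternatives were another pseudocount, other filters, other scalings, the groups alone, voom on estimated fragments, and fits without single libraries or without those over 20% intergenic.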

Additional observations from a re-analysis of the deposited data

How the results depend on the processing

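No member was called under any of the 15 alternatives of each of the 6 comparisons, and the smallest adjusted p was 0.0878, for G6pdx in the extract high dose with voom. The number of all genes called against vehicle was 0 to 2 in the fit as reported, 1 to 45 with voom and 163, 206, 350 and 252 without the libraries over 20% intergenic (cymopol high, extract high, cymopol low and extract low), a fit that leaves 1 vehicle library, assumed to vary like the other groups. Of 540 member differences under alternatives, 35 changed sign, in 13 of the 36 member differences, none of them called. With median-of-ratios scaling, the log2 difference was -0.16 for Me1 in the cymopol high dose, -0.62 for Me1 in the extract high dose and -0.14 for Taldo1 in the cymopol low dose, each against vehicle. In the same scaling, high against low dose, it was -0.070 for G6pdx and -0.083 for Idh1 with cymopol and -0.24 for Pgd with the extract. With equal FPKM sums, Me1 in the extract high dose had -0.024 and Tkt in the extract low dose 0.091. With equal sums of FPKM times length, they had -0.031 and 0.19. With voom, they had -0.79 and 0.28. Without libraries over 20% intergenic, Me1 in the extract high dose had -0.82, Taldo1 and Tkt in the cymopol low dose -0.54 and -0.70, and Idh1 in extract high against low -0.53. The cause of these reversals was not tested. With single libraries left out, the ranges that changed sign against vehicle were -0.45 to 1.96 for Tkt and -0.52 to 0.83 for Me1 in the extract high dose, -0.70 to 0.97 for Taldo1, -1.19 to 1.23 for Tkt and -0.81 to 0.54 for Me1 in the cymopol low dose, and -0.89 to 1.58 for Taldo1, -0.18 to 1.82 for Idh1 and -2.14 to 0.48 for Tkt in the extract low dose. For Idh1 in extract high against low it was -0.53 to 1.47. With single libraries left out, Pgd had 1.62 to 3.25 in the cymopol high dose, 1.59 to 3.23 in the extract high dose, 0.96 to 2.60 in the cymopol low dose and 0.19 to 2.34 in the extract low dose against vehicle, each lowest without vehicle replicate 2. G6pdx had 2.08 to 3.37, 2.26 to 3.69, 1.60 to 2.89 and 0.29 to 1.75 in the same groups, lowest in the extract low dose without extract low replicate 27. With a pseudocount of 0.1, G6pdx had 4.67 in the cymopol high dose, 5.01 in the extract high dose, 4.12 in the cymopol low dose and 1.90 in the extract low dose. The median over all genes, 0.81 in the cymopol high dose and 0.71 in the extract high dose, was 0.58 and 0.58 with equal sums of FPKM times length and 0.24 and 0.25 with median-of-ratios scaling. Values by gene identifier alone could not be computed, since no member has such a row. No paired analysis was possible because the groups share no replicate numbers. Depth limits the low members, with under 1 fragment estimated by interval width in 5 of 15 libraries for G6pdx and for Me1, and in 6 for Idh1. Tkt also had under 1 in 6 libraries, but its intervals were wide for its level, so its estimates may be too low.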
